A study of Mus musculus with 6 samples.

Results

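The glucocorticoid receptor and a set of its well-known target genes were followed in the colon of mice of the inbred strain BALB/c. The set held 10 genes chosen by name, with earlier results of these data known. They were the receptor gene Nr3c1 and the targets Fkbp5, Tsc22d3, Zbtb16, Klf9, Dusp1, Errfi1, Pdk4, Mt1 and Mt2. All 10 were present among the 30777 genes of the deposited table, and all 10 were expressed highly enough to be among the 20101 genes tested. RNA was sequenced from 6 libraries of whole colon tissue, 3 from mice treated with 5-fluorouracil (5-Fu) and 3 from mice treated with 5-fluorouracil plus berberine (5-Fu+BBR). 5-Fluorouracil is a pyrimidine analogue used in chemotherapy that injures the dividing cells of the gut lining, and berberine is a plant alkaloid. Both groups thus carried 5-fluorouracil, and no library of untreated colon was analysed here. The labels give no dose, time, age or sex. They also do not say that each library stands for its own animal, so a p-value here reflects no more than the variation among these libraries, which may be technical.

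Glucocorticoids are steroid hormones of the adrenal cortex that are also made in small amounts by the intestinal epithelium. Without hormone the receptor is held in the cytoplasm by the chaperone Hsp90 and its partners. With hormone it enters the nucleus, binds DNA at glucocorticoid response elements and induces genes that dampen inflammation and change metabolism, while it represses many inflammatory genes. In the gut, the hormone also restrains immune cells and promotes sodium uptake.

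Library totals of the deposited estimated counts ranged from 53824752 to 63831168. CPM are these counts relative to the library total after TMM scaling, and FPKM are the authors' values per length of transcript. Log2 fold changes are 5-Fu+BBR minus 5-Fu, and means are given ± SD (n = 3 per group). Values of single libraries are listed in the order of replicates 1, 2 and 3. Epithelial markers were present in every library, with a summed level of 20613.1 to 27928.3 CPM in 5-Fu and 20930.1 to 26029.7 CPM in 5-Fu+BBR over 15 genes. Other cell types differed between the groups. All 11 adipocyte markers tested had positive log2 fold changes, and their summed level was 39.6 to 81.3 CPM in 5-Fu and 223 to 399 CPM in 5-Fu+BBR. Of these, Lep was at 0 in all 3 libraries of 5-Fu. All 10 smooth muscle markers were also positive, with sums of 2574 to 3322 CPM and 4663 to 5318 CPM. The 12 T and NK cell markers, positive in 12 of 12, summed to 34.6 to 42.3 CPM and 65.4 to 115 CPM. B and plasma cell, macrophage and mast cell sums were also higher in every 5-Fu+BBR library, and the sums for fibroblasts, endothelium, neutrophils, skeletal muscle and adrenal cortex overlapped. An overlapping sum can hide single markers. Of 9 neutrophil markers tested, 7 had negative and 2 positive log2 fold changes, with a median of -1.31. Of 4 adrenal cortex markers tested, 2 were positive and 2 negative, and the groups did not overlap for 1 higher and 1 lower. Enteric neuron and glia sums were lower in every 5-Fu+BBR library, 29.7 to 43.1 CPM against 44.2 to 47.8 CPM. The single markers of that list did not move one way, with 6 positive and 4 negative log2 fold changes and a median of 0.10. Kidney markers summed to 57.4 CPM in 5-Fu+BBR replicate 1 and to 242 and 232 CPM in replicates 2 and 3, against 53.0 to 65.0 CPM in 5-Fu. In whole tissue, fewer cells of a type and less RNA per cell cannot be told apart, and the part of these shifts in the results below was not tested.

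**Figure D1:**
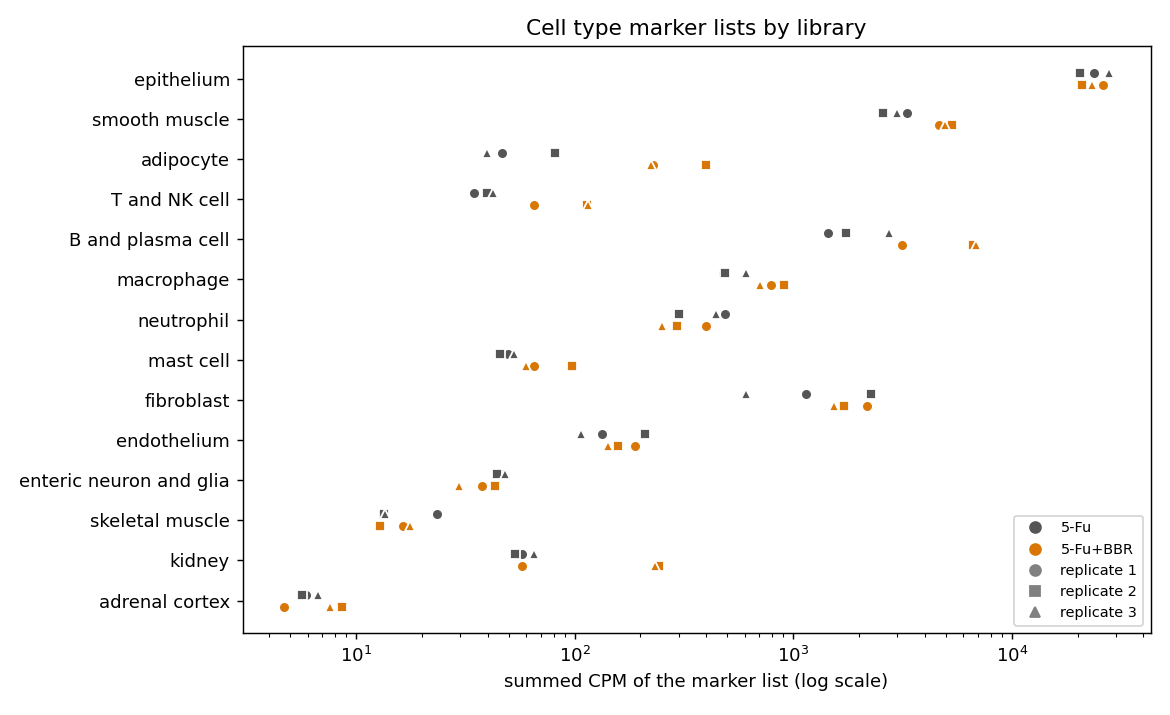
Summed CPM of each cell type marker list (x axis, log scale) in every library, with 5-Fu in grey, 5-Fu+BBR in orange and the replicate given by the marker shape. Adipocyte, smooth muscle and T and NK cell sums were higher in all 3 libraries of 5-Fu+BBR, kidney markers in replicates 2 and 3 only, and epithelial sums overlapped.

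The question of the study's only comparison was which colon genes differ when berberine is added to 5-fluorouracil. None of the 10 receptor-related genes passed an adjusted p of 0.05 by edgeR's quasi-likelihood test over all genes tested, where 0.0746% of genes did (0.0149% lower and 0.0597% higher). At an unadjusted p under 0.05 by edgeR there were 6 of the 10, with 4 lower and 2 higher in 5-Fu+BBR, beside 15.6% of all genes tested. Leaving out 1 library gave 2 lower (without 5-Fu replicate 3) to 4 lower and 1 higher (without 5-Fu replicate 1 or 5-Fu+BBR replicate 2 or 3) to 2 higher. DESeq2 called 2 of the 10, Fkbp5 and Mt2, both lower, where it called 6.48% of all genes with an adjusted p (1.83% lower and 4.65% higher). By limma-voom 0 of the 10 and 0.104% of all genes were called. The libraries of the groups did not overlap for 5 genes: Fkbp5, Mt1 and Mt2 were lower and Dusp1 and Errfi1 higher in 5-Fu+BBR. Over all genes tested, 21.9% did not overlap. The median log2 fold change of the 10 genes was -0.23, and that of all genes tested was 0.0051. Because the 10 genes were chosen with earlier results of these data known, the shares set side by side here are descriptions and not tests.

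**Figure D2:**
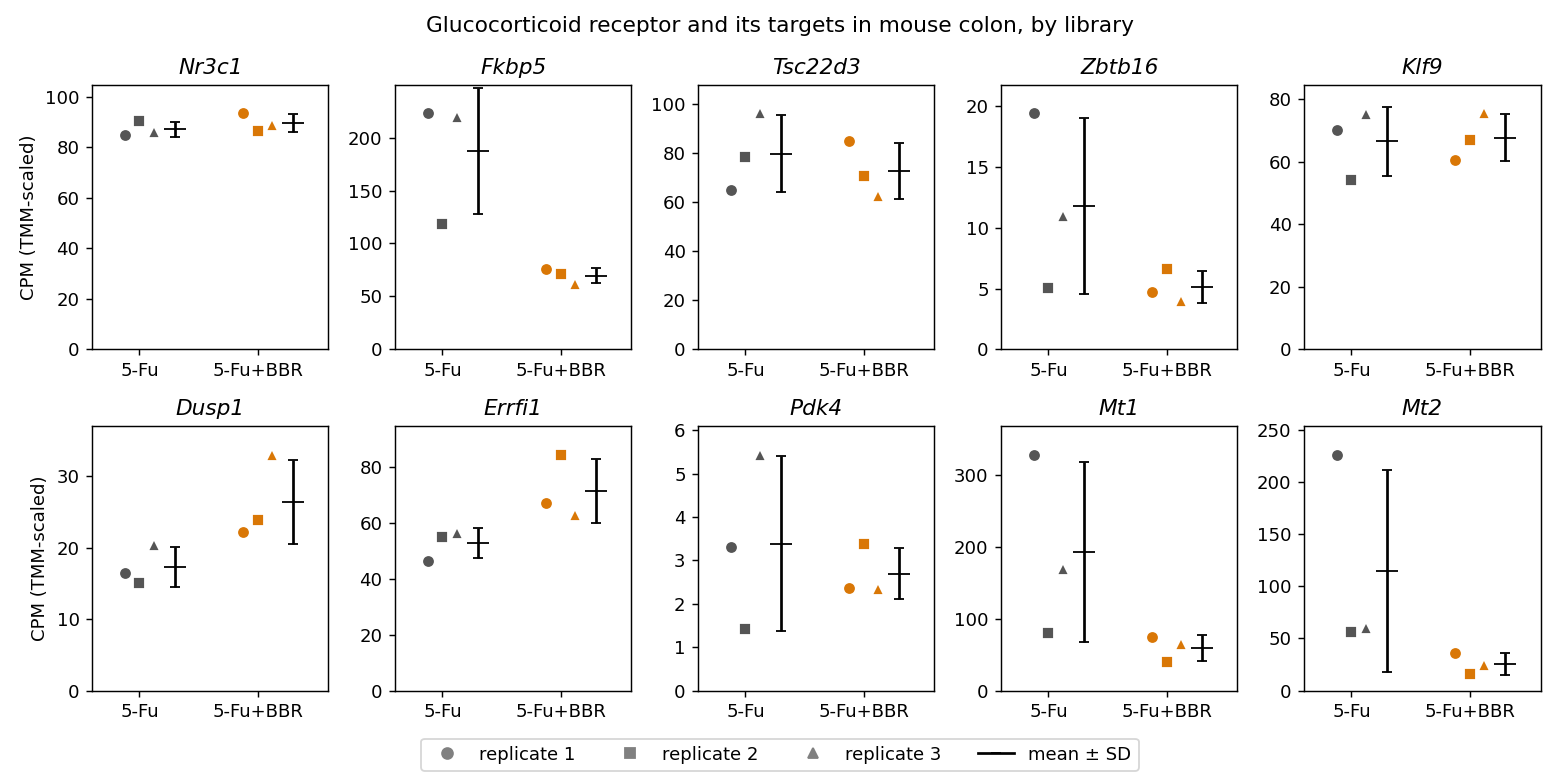
Level of each of the 10 genes in CPM (y axis, starting at 0) in the 3 libraries of 5-Fu (grey) and the 3 of 5-Fu+BBR (orange), with the mean ± SD beside them. Fkbp5, Mt1 and Mt2 lay lower in every 5-Fu+BBR library than in any 5-Fu library, Dusp1 and Errfi1 higher, and Nr3c1 lay between 84.9 and 93.5 CPM throughout.

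The receptor gene itself was the steadiest of the 10. Nr3c1 (ENSMUSG00000024431, chromosome 18, 39410545 to 39519421 of GRCm38, minus strand) encodes the glucocorticoid receptor. Its level was 84.9, 90.5 and 85.9 CPM in the 5-Fu libraries against 93.5, 86.6 and 88.9 CPM in the 5-Fu+BBR libraries. The groups overlapped, and the highest library was 1.10-fold above the lowest. The log2 fold change was 0.041 ± 0.091 (SE), with a 95% interval of -0.17 to 0.25 (adjusted p = 0.870 by edgeR). That interval leaves room for small differences in either direction.

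Fkbp5 had the smallest p of the 10 and stood at rank 94 among all genes tested. It encodes FKBP51, an Hsp90 co-chaperone that lowers the receptor's affinity for hormone and is itself induced by the receptor, which closes a feedback loop (ENSMUSG00000024222, chromosome 17, 28399094 to 28517527, minus strand). Its level was 223, 118 and 219.7 CPM in the 5-Fu libraries against 75.7, 71.1 and 61.6 CPM in the 5-Fu+BBR libraries. Replicates 1 and 3 of 5-Fu were high, replicate 2 lay between them and the 5-Fu+BBR libraries, and the groups did not overlap. The means were 187 ± 59.5 CPM and 69.5 ± 7.20 CPM, 2.69-fold lower in 5-Fu+BBR (log2 fold change -1.43 ± 0.24 SE, adjusted p = 0.0920 by edgeR). The call turned on the tool and on 1 library: the adjusted p was 2.83e-06 by DESeq2, 0.0877 by limma-voom and 0.0189 by edgeR without 5-Fu replicate 2. With 5-Fu+BBR replicate 1, which had kidney markers at the level of 5-Fu, as the only library of its group, the log2 fold change was -1.31. The call could not be tested there, since that setting called 0 of all genes.

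Levels can be compared between genes on the FPKM scale. In 5-Fu, Mt2 (164 ± 140 FPKM) and Mt1 (129 ± 85.1 FPKM) were the highest and did not differ beyond their spread. Fkbp5 (16.4 ± 4.62 FPKM) and Tsc22d3 (15.4 ± 2.43 FPKM) came next and did not differ beyond theirs. In 5-Fu+BBR, Fkbp5 was at 6.18 ± 0.559 FPKM, below Errfi1 (16.8 ± 3.09), Tsc22d3 (14.1 ± 1.83), Klf9 (11.9 ± 1.57), Nr3c1 (9.82 ± 0.0645) and Dusp1 (6.71 ± 1.58 FPKM). Fkbp5 and Dusp1, neighbours in that order, did not differ beyond their spread, and neither did Mt1 (40.0 ± 11.1 FPKM) and Mt2 (36.4 ± 13.2 FPKM) at its top. Zbtb16 (0.815 ± 0.230 FPKM) and Pdk4 (0.648 ± 0.160 FPKM) were the lowest in 5-Fu+BBR, and in 5-Fu they were at 1.86 ± 1.15 and 0.787 ± 0.422 FPKM.

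The metallothionein genes had the largest differences of the set and also the widest spread. Mt1 (ENSMUSG00000031765, chromosome 8, 94179082 to 94180327, plus strand) and Mt2 (ENSMUSG00000031762, chromosome 8, 94172664 to 94173568, plus strand) lie next to each other and encode small cysteine-rich proteins that bind zinc and copper. They are induced by metals through the factor MTF1, by inflammation and by glucocorticoids. Fkbp5 also was lower in every 5-Fu+BBR library, but the sequence around its start held 0 matches to the motifs searched below and is not printed. The sequences before the starts of Mt1 and Mt2, both lower in every 5-Fu+BBR library, are shown. They are the 250 bases before the RefSeq start, build GRCm38.p6, plus strand, written 5′ to 3′, with matches to the core of the metal response element in capitals.
Mt1, chr8:94178839-94179088: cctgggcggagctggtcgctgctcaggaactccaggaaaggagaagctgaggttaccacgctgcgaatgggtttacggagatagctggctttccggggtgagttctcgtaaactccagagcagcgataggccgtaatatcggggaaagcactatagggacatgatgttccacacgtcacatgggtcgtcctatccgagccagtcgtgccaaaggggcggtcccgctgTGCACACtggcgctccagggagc
Mt2, chr8:94172368-94172617: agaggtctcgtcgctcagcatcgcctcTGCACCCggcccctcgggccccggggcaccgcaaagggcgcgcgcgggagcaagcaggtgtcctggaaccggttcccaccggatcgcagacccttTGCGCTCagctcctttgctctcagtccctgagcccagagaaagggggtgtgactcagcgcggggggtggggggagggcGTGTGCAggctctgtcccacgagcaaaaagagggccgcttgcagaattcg

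The metal response element was searched as TGCGCNC and TGCACNC on both strands in windows of 300 bases, from 250 before to 50 after each start. Mt1 held 3 matches, of which 1 is in the stretch shown and 2 lie after the RefSeq start used. Mt1 has 3 annotated transcripts, and windows at any other start of the gene were not searched. Mt2 held 4 matches, of which 3 are in the stretch shown. At least 1 match was present in 25.7% of the 32851 windows of all genes, and 3 or more in 1.97%. The full glucocorticoid response element, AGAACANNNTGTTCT, was in 0 of the 11 windows of the 8 receptor-related genes with an entry and in 3 of the 32851. The shorter motif AGAACA, 1 arm of that element, on either strand, was in 1 of the 11, a window of Tsc22d3, and in 19.0% of all windows. The 8 genes do not include Nr3c1 and Zbtb16. The full element was in 0.0091% of all windows, so its absence from 11 does not tell these genes from others. Sequence outside the windows was not searched. A match of letters is a description and not a binding site.

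Mt1 was at 328, 80.1 and 169 CPM in the 5-Fu libraries against 74.3, 39.4 and 64.6 CPM in the 5-Fu+BBR libraries. Mt2 was at 226, 56.6 and 60.4 CPM in 5-Fu and at 36.2, 16.0 and 24.7 CPM in 5-Fu+BBR, in the same order. For both genes 5-Fu replicate 1 stood far above the other libraries and 5-Fu+BBR replicate 2 was the lowest, and the groups did not overlap. For Mt1 the gap between the groups was narrow, 80.1 against 74.3 CPM. Mt1 was 3.24-fold lower in 5-Fu+BBR (log2 fold change -1.70 ± 0.54 SE, adjusted p = 0.244 by edgeR) and Mt2 4.47-fold lower (-2.16 ± 0.66 SE, adjusted p = 0.229 by edgeR). Much of this size came from 1 library: without 5-Fu replicate 1 the log2 fold changes were -1.07 for Mt1 and -1.19 for Mt2. The adjusted p values were then 0.468 and 0.351 by edgeR, but that setting called 0 of all genes. Unadjusted p values by edgeR were 0.038 and 0.0092 there, against 0.021 and 0.018 with all libraries. With 5-Fu+BBR replicate 1 as the only library of its group the log2 fold changes were -1.38 and -1.67.

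Mt1 and Mt2 followed each other across the 6 libraries (Pearson r = 0.954 on log2 CPM). Out of 12700 other genes compared with each, 87 had an r above 0.95 with Mt1 and 78 with Mt2. The longest run of bases that the longest transcripts of Mt1 and Mt2 share is 20. Whether reads were wrongly assigned between them was not tested. Mt2 overlaps exons of Gm45774, annotated as its antisense RNA and singled out here after its values were seen. Gm45774 was at 7.11, 4.67 and 5.99 CPM in the 5-Fu libraries against 0.777, 0.615 and 1.24 CPM in the 5-Fu+BBR libraries. The groups did not overlap, and the log2 fold change was -2.75 ± 0.35 (SE), just short of the threshold (adjusted p = 0.0517 by edgeR). The libraries were strand-marked, but no source used here says whether counting took strand into account, so reads of Mt2 and of its antisense gene cannot be told apart. Of the close relatives, Mt3, a metallothionein best known from brain, was at 0.981 ± 0.530 against 1.42 ± 0.275 CPM (adjusted p = 0.626 by edgeR), and Mt4 was too low to be tested.

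Other genes of metal handling were set beside them. Of 20 genes of metallothionein and zinc control, 19 were tested. None passed an adjusted p of 0.05 by edgeR, and the median log2 fold change was -0.15. At an unadjusted p under 0.05 by edgeR, 4 were lower and 1 higher, beside 6.08% and 9.48% of all genes tested. Mtf1, the factor that senses zinc and binds metal response elements, was at 51.9 ± 4.78 against 49.1 ± 5.02 CPM (log2 fold change -0.082 ± 0.12 SE). Slc30a1, the zinc exporter induced by MTF1, was at 50.0, 43.0 and 48.7 CPM in 5-Fu and 40.6, 66.2 and 61.3 CPM in 5-Fu+BBR, with groups that overlapped. The importer Slc39a8 (log2 fold change -0.55 ± 0.13 SE, adjusted p = 0.145 by edgeR) and the copper transporter Atp7a (-0.54 ± 0.16 SE, adjusted p = 0.191 by edgeR) were lower in every 5-Fu+BBR library. Slc30a10, a manganese exporter, was at 0.342 ± 0.167 against 2.03 ± 1.58 CPM and overlapped between the groups.

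**Figure D3:**
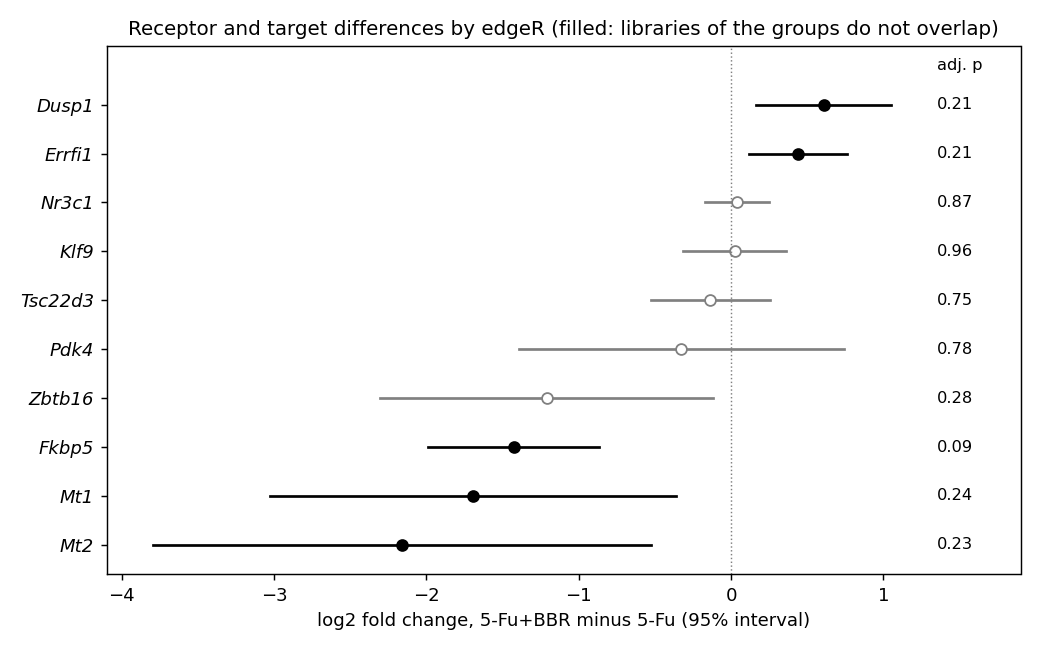
Log2 fold change of each of the 10 genes, 5-Fu+BBR minus 5-Fu (x axis), with its 95% interval and the edgeR adjusted p at the right. Filled points mark the 5 genes whose libraries did not overlap between the groups. The smallest adjusted p is that of Fkbp5, and the intervals of Mt1, Mt2, Zbtb16 and Pdk4 are the widest.

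Zbtb16 was also lower on average, but its libraries overlapped. It encodes PLZF, a zinc finger repressor that glucocorticoids induce in many tissues and that innate-like lymphocytes use (ENSMUSG00000066687, chromosome 9, 48654297 to 48836222, minus strand). Its level was 19.4, 5.02 and 11 CPM in the 5-Fu libraries against 4.73, 6.57 and 4.004 CPM in the 5-Fu+BBR libraries. Replicate 2 of 5-Fu lay within the range of 5-Fu+BBR, and the other 5-Fu libraries above it. The log2 fold change was -1.21 ± 0.47 (SE, adjusted p = 0.282 by edgeR), and without 5-Fu replicate 1 it was -0.65 (adjusted p = 0.621 by edgeR). T and NK cell markers, a list not picked for cells that use PLZF, had a higher summed level in every 5-Fu+BBR library. The part of cell content in the Zbtb16 values was not tested.

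The classical targets Tsc22d3 and Klf9 were close to level. Tsc22d3 encodes GILZ, a leucine zipper protein that mediates part of the hormone's action on immune cells (ENSMUSG00000031431, chromosome X, 140539528 to 140600659, minus strand). It was at 65.0, 78.5 and 96.4 CPM in the 5-Fu libraries against 84.9, 70.9 and 62.4 CPM in the 5-Fu+BBR libraries. The groups overlapped throughout, and the log2 fold change was -0.14 ± 0.17 (SE), with a 95% interval of -0.53 to 0.26 (adjusted p = 0.748 by edgeR). Klf9 encodes a Krüppel-like repressor that responds within hours to glucocorticoids and to thyroid hormone (ENSMUSG00000033863, chromosome 19, 23141226 to 23168134, plus strand). It was at 70.1, 54.1 and 75.3 CPM in 5-Fu and at 60.5, 66.9 and 75.5 CPM in 5-Fu+BBR. Its log2 fold change was 0.025 ± 0.15 (SE), with an interval of -0.31 to 0.36 (adjusted p = 0.958 by edgeR). The sign of both values depended on single libraries: Tsc22d3 was at 0.027 without 5-Fu replicate 3, and Klf9 at -0.10 without 5-Fu replicate 2 and at -0.058 without 5-Fu+BBR replicate 3.

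Dusp1 and Errfi1, feedback inhibitors of growth factor and stress signalling, were higher in every 5-Fu+BBR library. Dusp1 encodes MKP-1, a phosphatase that switches off the p38 and JNK kinases (ENSMUSG00000024190, chromosome 17, 26505590 to 26562128, minus strand). It was at 16.4, 15.0 and 20.4 CPM in the 5-Fu libraries against 22.1, 23.9 and 33.0 CPM in the 5-Fu+BBR libraries. The groups did not overlap, with replicate 3 the highest in each, and the difference was 1.52-fold (log2 fold change 0.61 ± 0.19 SE, adjusted p = 0.212 by edgeR). The log2 fold change was 0.41 without 5-Fu+BBR replicate 3 and 0.35 with 5-Fu+BBR replicate 1 as the only library of its group. The annotated span of Dusp1 overlaps exons of Ergic1 on the opposite strand, which was at 71.5 to 81.9 CPM in 5-Fu and 76.8 to 92.6 CPM in 5-Fu+BBR (log2 fold change 0.18 ± 0.11 SE). Part of the Dusp1 reads could therefore come from Ergic1 if strand was not used in counting.

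Errfi1 encodes MIG6, a cytoplasmic inhibitor of the EGF receptor (ENSMUSG00000028967, chromosome 4, 150853919 to 150868892, plus strand). It was at 46.5, 54.8 and 56.4 CPM in the 5-Fu libraries against 67.2, 84.3 and 62.7 CPM in the 5-Fu+BBR libraries. Replicate 2 of 5-Fu+BBR was the highest, and the groups did not overlap. The difference was 1.36-fold (log2 fold change 0.44 ± 0.14 SE, adjusted p = 0.212 by edgeR). The log2 fold change was 0.30 without 5-Fu+BBR replicate 2 and 0.34 with 5-Fu+BBR replicate 1 alone.

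Pdk4, a kinase that blocks pyruvate dehydrogenase and so spares glucose, was barely expressed and variable (ENSMUSG00000019577, chromosome 6, 5483351 to 5496309, minus strand). It was at 3.31, 1.41 and 5.44 CPM in the 5-Fu libraries against 2.37, 3.38 and 2.34 CPM in the 5-Fu+BBR libraries. All 5-Fu+BBR libraries lay within the range of 5-Fu. The log2 fold change was -0.33 ± 0.46 (SE), with an interval of -1.39 to 0.74 (adjusted p = 0.782 by edgeR), and it was 0.20 without 5-Fu replicate 3.

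**Figure D4:**
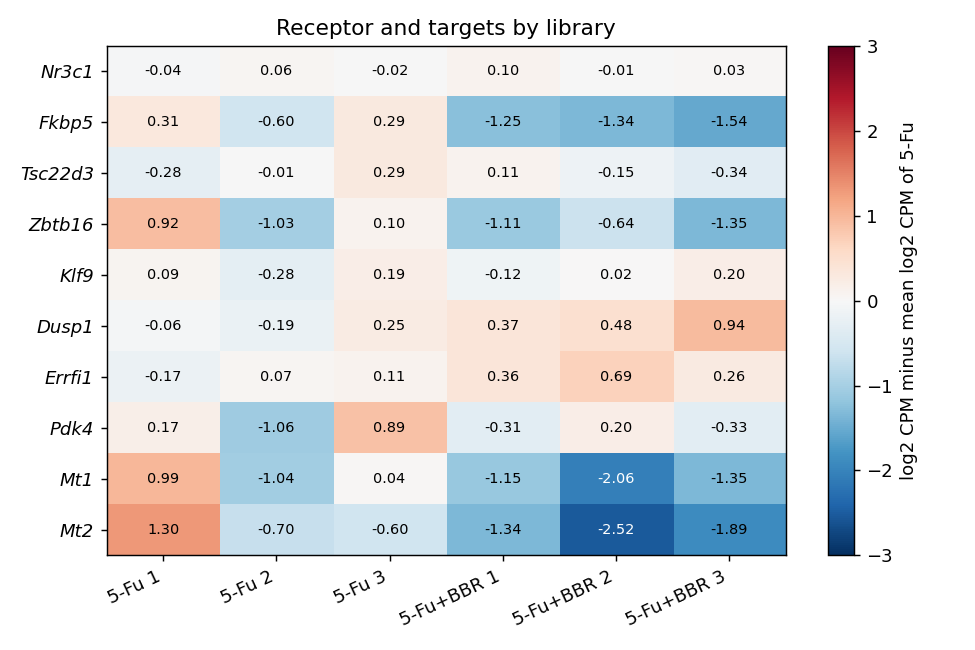
Log2 CPM of each gene in each library relative to the mean log2 CPM of 5-Fu (colour and printed value). In the 5-Fu group, replicate 1 was highest and replicate 2 lowest for Fkbp5, Zbtb16, Mt1 and Mt2, while Nr3c1 stayed between -0.037 and 0.10 in all libraries.

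The coefficient of variation was larger within 5-Fu than within 5-Fu+BBR for 7 of the 10 genes and smaller for Nr3c1, Dusp1 and Errfi1. In 5-Fu replicate 2 was the lowest library for Fkbp5, Zbtb16, Klf9, Pdk4, Mt1, Mt2 and Dusp1, and replicate 1 the highest for Fkbp5, Zbtb16, Mt1 and Mt2. The highest 5-Fu library was 1.88-fold above the lowest for Fkbp5, 3.87-fold for Zbtb16, 3.85-fold for Pdk4, 4.09-fold for Mt1 and 3.997-fold for Mt2. Within 5-Fu+BBR the same ratios were 1.23, 1.64, 1.44, 1.88 and 2.27. For Dusp1 the ratio was 1.354 in 5-Fu and 1.49 in 5-Fu+BBR, and for Errfi1 it was 1.21 and 1.346. Replicate 2 of 5-Fu had the highest fibroblast sum of its group, 2272 CPM against 1150 and 608 CPM in replicates 1 and 3, and the lowest epithelial sum. The part of these shifts in the values of the receptor's targets was not tested.

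For each gene with a mean of at least 1 FPKM, the 3 genes with the most similar pattern were those whose log2 CPM had the highest Pearson correlation with it over the 6 libraries, out of 12700 candidates (12701 for Zbtb16). They are descriptions of these libraries, since 6 points allow many high values. Cdipt, Cluh and Rpsa were most like Fkbp5, each with r above 0.99, and 102 candidates were above 0.95. Tpi1, Rpl14-ps1 and Dusp5 were most like Mt1, and Smad1, Ctbp2 and Bglap3 most like Mt2. Ankrd11 and Gm8566 were among the 3 most like Nr3c1, Pard3b, Fbxl8 and Rapgef2 most like Tsc22d3, and Tm2d2, Pet100 and Fahd1 most like Klf9. Tomm5, Ptges3-ps and Yars were most like Zbtb16, Stxbp6, Igkv6-32 and Cyp2d26 most like Dusp1, and Hdac7, Gng2 and Mcpt1 most like Errfi1.

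The rest of the pathway was examined with 11 lists of other genes, 217 in all, of which 200 were tested. Only Sgk1 passed an adjusted p of 0.05 by edgeR, and it was lower. At an unadjusted p under 0.05 there were 24 lower and 17 higher by edgeR, and DESeq2 called 13 lower and 7 higher, beside 1.83% and 4.65% of all genes. Over all genes tested, edgeR gave 6.08% lower and 9.48% higher at an unadjusted p under 0.05. The same shares apply beside the counts of each list below. Of the 20101 genes tested, 10186 had positive and 9915 negative log2 fold changes. The median log2 fold change of the 200 genes was -0.057.

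Sgk1, the kinase through which corticosteroids raise sodium uptake, was at 196, 134 and 149.7 CPM in the 5-Fu libraries against 58.8, 54.5 and 61.0 CPM in the 5-Fu+BBR libraries. It fell by 1.46 ± 0.15 (SE) on the log2 scale (adjusted p = 0.0228 by edgeR). The call was lost without 5-Fu replicate 1 (adjusted p = 0.0814 by edgeR), 5-Fu+BBR replicate 2 (0.264) or 5-Fu+BBR replicate 3 (0.0601). Without 5-Fu replicate 1 or 5-Fu+BBR replicate 2, 0 of all genes were called, so no gene kept a call there. In the same order, unadjusted p values by edgeR were 1.4e-05, 0.00014 and 7.8e-05, against 1.1e-05 with all libraries. The log2 fold change stayed between -1.57 and -1.29 under all alternatives.

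Ligand supply came first among the lists. Of 25 genes that make, activate or remove corticosteroids, 15 were tested, 0 passed by edgeR, and 1 was higher and 1 lower at an unadjusted p under 0.05. Hsd11b1, which regenerates active hormone, was at 6.69 ± 3.42 against 7.66 ± 0.644 CPM (adjusted p = 0.827 by edgeR). H6pd, which supplies its cofactor, was at 43.1 ± 6.95 against 35.5 ± 6.22 CPM. Hsd11b2, which inactivates the hormone and so protects the mineralocorticoid receptor in the colon, was at 348, 263 and 477 CPM in 5-Fu and 383, 267 and 317 CPM in 5-Fu+BBR. For these 3 genes the groups overlapped. Nr5a2, the nuclear receptor that drives steroid synthesis in the gut epithelium, was at 21.9 ± 7.90 against 30.1 ± 7.24 CPM (adjusted p = 0.489 by edgeR).

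Transcripts of the synthesis enzymes themselves were near the limit of detection. Cyp11a1, the first enzyme of the pathway, was at 0.522, 0.119 and 0.0985 CPM in 5-Fu and 0.169, 0.488 and 0 CPM in 5-Fu+BBR, too low to be tested. Cyp21a1, the 21-hydroxylase, was at 0.234, 1.10 and 0.236 CPM in 5-Fu and had 0 counts in all 3 libraries of 5-Fu+BBR. With 12 counts over that group taken as the floor, it was at least 7.42-fold lower (adjusted p = 0.127 by edgeR), and at least 3.33-fold lower without 5-Fu replicate 2. That bound covers counting error only, and the gene has a similar pseudogene copy among which reads could be split. The efflux pumps Abcb1a and Abcb1b, which export glucocorticoids among many compounds, were at 109 ± 79.6 against 226 ± 72.3 CPM and 4.32 ± 1.66 against 7.64 ± 2.00 CPM (adjusted p = 0.419 and 0.279 by edgeR), with groups that overlapped.

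Chaperones and coregulators of the receptor came next. Of 15 chaperone genes 12 had negative log2 fold changes, with a median of -0.15 and a range of -0.33 to 0.19, and 0 passed by edgeR (2 lower at an unadjusted p under 0.05). Fkbp4, the co-chaperone that opposes FKBP51 and carries the receptor to the nucleus, was at 285, 269 and 263 CPM in 5-Fu and 244, 239.6 and 231 CPM in 5-Fu+BBR. The groups did not overlap, but the log2 fold change was -0.19 ± 0.10 (SE, adjusted p = 0.416 by edgeR). The smallest p in that list were those of Bag1, Sgta and Ptges3, with log2 fold changes of -0.33, -0.27 and -0.27. Of 20 coregulators, 0 passed by edgeR, with 2 higher and 1 lower at an unadjusted p under 0.05. Hic1 (0.86 ± 0.26 SE), the metabolic coactivator Ppargc1a (0.41 ± 0.12 SE) and the corepressor Nrip1 (-0.30 ± 0.11 SE) had the smallest p, with adjusted p values of 0.197, 0.199 and 0.273 by edgeR.

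Of the related steroid receptors, the mineralocorticoid receptor Nr3c2 was at 107, 81.1 and 111 CPM in 5-Fu and 106, 98.3 and 117 CPM in 5-Fu+BBR (adjusted p = 0.768 by edgeR). The oestrogen receptor Esr2 was at 1.02 ± 0.683 against 2.38 ± 0.321 CPM and was higher in every 5-Fu+BBR library (adjusted p = 0.321 by edgeR). Esr1 was at 2.85 against 3.52 CPM on average, and its groups overlapped. None of the 4 tested passed by edgeR, and 2 were higher at an unadjusted p under 0.05.

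**Figure D5:**
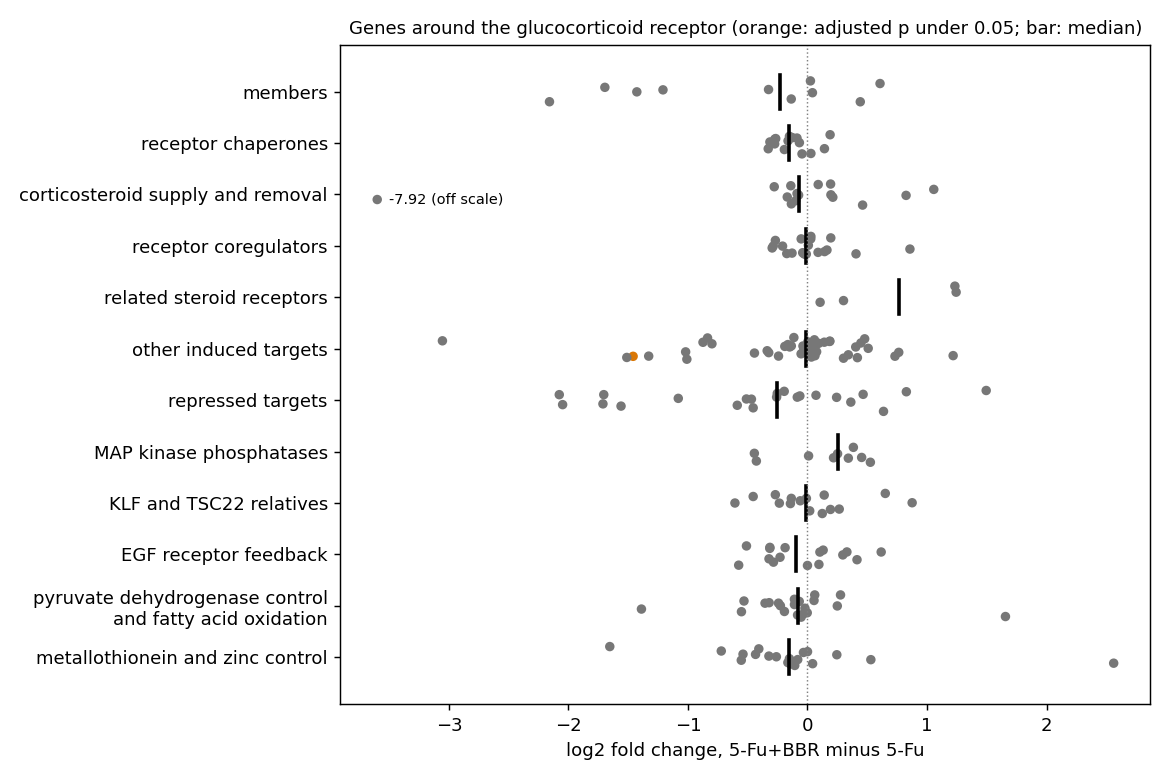
Log2 fold change of every tested gene (points) in each list around the receptor, 5-Fu+BBR minus 5-Fu, with the list median as a bar. Only Sgk1, in orange, passed an adjusted p of 0.05, and list medians lay between -0.26 and 0.77.

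Other genes that glucocorticoids induce did not move one way. Of 44 tested, 22 had positive and 22 negative log2 fold changes, with a median of -0.011. Besides Sgk1, 6 were lower and 4 higher at an unadjusted p under 0.05, and the groups did not overlap for 7 lower and 6 higher genes in all, beside 9.68% and 12.3% of all genes tested. Ddit4, which restrains mTOR, was at 83.5, 92.1 and 100.6 CPM in 5-Fu and 58.1, 40.0 and 60.6 CPM in 5-Fu+BBR, with no overlap (log2 fold change -0.80 ± 0.17 SE, adjusted p = 0.115 by edgeR). The cell cycle inhibitor Cdkn1c was at 5.52 ± 1.18 against 3.01 ± 0.219 CPM (adjusted p = 0.173 by edgeR). The clock gene Per1, a rapid target of the receptor, was at 45.8 ± 3.95 against 44.6 ± 5.42 CPM (log2 fold change -0.038 ± 0.12 SE). Cebpd (0.032 ± 0.19 SE), the NF-kB inhibitor Nfkbia (-0.16 ± 0.16 SE) and annexin Anxa1 (-0.34 ± 0.14 SE), an anti-inflammatory mediator, had log2 fold changes with groups that overlapped.

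Genes that glucocorticoids repress in inflammation were tested as 22 of 26 listed. By edgeR 0 passed, and 3 were higher and 1 lower at an unadjusted p under 0.05, with a median log2 fold change of -0.26. The chemokine Ccl20 was at 8.24 ± 1.32 against 12.8 ± 0.639 CPM and the adhesion molecule Vcam1 at 31.2 ± 4.04 against 43.1 ± 4.75 CPM, both higher in every 5-Fu+BBR library (adjusted p = 0.173 and 0.186 by edgeR). The neutrophil attractant Cxcl1 was at 6.25, 5.51 and 1.68 CPM in 5-Fu and 2.15, 1.16 and 0.812 CPM in 5-Fu+BBR (adjusted p = 0.225 by edgeR). Its groups overlapped through 5-Fu replicate 3. Neutrophil markers summed to 299.9 to 486 CPM in 5-Fu and 249.8 to 399.9 CPM in 5-Fu+BBR, and most of that sum was Ly6g. Of the 9 neutrophil markers tested, 7 had negative log2 fold changes, with a median of -1.31, and 1 was lower at an unadjusted p under 0.05. S100a8 was at 35.8, 32.7 and 2.70 CPM in 5-Fu and 9.20, 0.253 and 0.144 CPM in 5-Fu+BBR. The part of these markers in the values of Cxcl1 and the other repressed targets was not tested.

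The families of the single targets were examined in the same way. Of 9 other MAP kinase phosphatases 7 had positive log2 fold changes, with a median of 0.25, and 0 passed by edgeR (1 higher at an unadjusted p under 0.05). Dusp6, which acts on ERK, was at 55.7 ± 6.45 against 72.7 ± 11.8 CPM and higher in every 5-Fu+BBR library (log2 fold change 0.38 ± 0.14 SE, adjusted p = 0.266 by edgeR). Dusp4 (0.53 ± 0.27 SE) was higher in every 5-Fu+BBR library too, and Dusp5 (-0.44 ± 0.20 SE) overlapped. Of 15 KLF and TSC22 relatives 0 passed by edgeR, with 3 lower and 2 higher at an unadjusted p under 0.05. Klf16, Klf2 and Klf12 had the smallest p, with log2 fold changes of -0.61, 0.65 and 0.88 (adjusted p = 0.154, 0.157 and 0.188 by edgeR). Klf4, abundant in surface epithelium, was at 543 ± 69.9 against 591 ± 51.4 CPM, Klf15 at 2.07 ± 2.14 against 2.09 ± 0.995 CPM and Tsc22d1 at 148 ± 11.2 against 169 ± 12.4 CPM.

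Around Errfi1, 16 genes of EGF receptor feedback were tested and 0 passed by edgeR, with 2 lower and 1 higher at an unadjusted p under 0.05. Egfr itself was at 47.2, 49.2 and 49.2 CPM in 5-Fu and 51.7, 37.7 and 34.9 CPM in 5-Fu+BBR. The ligands Hbegf (-0.51 ± 0.15 SE) and Tgfa (-0.31 ± 0.13 SE) were lower and the feedback gene Lrig3 (0.41 ± 0.15 SE) higher in every 5-Fu+BBR library on the log2 scale, with adjusted p values of 0.178, 0.295 and 0.245 by edgeR. Around Pdk4, 21 genes of pyruvate dehydrogenase and fatty acid oxidation were tested and 0 passed by edgeR, with 3 lower at an unadjusted p under 0.05. The phosphatase Pdp1 (-0.55 ± 0.14 SE) and the enzyme subunit Pdha1 (-0.32 ± 0.11 SE) were lower in every 5-Fu+BBR library (adjusted p = 0.153 and 0.229 by edgeR). The related kinases Pdk1 and Pdk2 were at 81.4 ± 4.79 against 68.8 ± 7.99 CPM and 41.4 ± 9.71 against 43.0 ± 9.78 CPM (adjusted p = 0.359 and 0.932 by edgeR).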

How the data were processed

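Polyadenylated RNA from colon tissue was made into dUTP-marked libraries carrying molecular identifiers and sequenced as paired reads, per the labels' protocols. Without role or order, the submitters' processing notes list GRCm38, StringTie 1.3.4d, HISAT2 2.0.4, cutadapt 1.9, UMI-tools, edgeR and DESeq2. The authors deposited estimated counts, written as whole numbers, and FPKM. For 92.1% to 93.2% of genes with 1 transcript and over 50 counts, the count was within 2% of the product of FPKM, GENCODE M21 transcript length and a factor per library. Low counts therefore carry less precision than their whole numbers show. Where every library of a group had 0 counts, 3 fragments, or 12 counts, served as the limit.

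The main test was the robust quasi-likelihood test of edgeR 4.0.16 (R 4.3.3) after filterByExpr and TMM scaling, without covariates. It was two-sided, and p-values were adjusted by Benjamini-Hochberg over all 20101 genes kept. Alternatives were DESeq2 1.42.0, limma 3.58.1 (voom, and log2 FPKM plus 1 or 0.1), other filters and scalings, counts divided by 4, a replicate block and leaving out libraries. The code was tested on simulated data. No libraries agreed within sampling noise. The 10 genes and all lists were chosen with earlier results of these data known. The text names the 10 genes, 25 key genes (Cyp11b1 is not analysed here), the 3 smallest p-values per list and the most similar genes. Other list members were named after their values were seen. Promoter sequences are RefSeq's (GRCm38.p6). Some genes that this naming rule selects are not reported here.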

Additional observations from a re-analysis of the deposited data

How the results depend on the processing

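Over all genes tested, 12 were higher and 3 lower in 5-Fu+BBR by edgeR. The counts were 64 and 13 with no filter, 880 and 347 with DESeq2, 119 and 25 at an adjusted p of 0.1, and 0 and 0 with 5-Fu+BBR replicate 1 alone. With log2(FPKM + 0.1) in limma, 1 gene was lower. Leaving out 1 library gave 0 to 145 higher and 0 to 15 lower genes. Of the 10 receptor-related genes, 0 were called higher in any setting. Those called lower were 2 with DESeq2 (Fkbp5 and Mt2), 1 at an adjusted p of 0.1 (Fkbp5) and 0 to 1 when 1 library was left out (Fkbp5 without 5-Fu replicate 2). Of the 200 other pathway genes tested, DESeq2 called 7 higher and 13 lower, 0 were lower with 5-Fu+BBR replicate 1 alone, and 0 to 2 were lower when 1 library was left out. The log2 fold changes of Fkbp5, Zbtb16, Mt1, Mt2, Dusp1, Errfi1 and Nr3c1 had the same sign in all 17 alternatives, while those of Klf9, Tsc22d3 and Pdk4 did not. Of the 17, the adjusted p of 0.1 keeps the fold changes of the main test, and all reuse the same libraries. Leaving out 1 library gave -0.10 (without 5-Fu replicate 2) to 0.13 for Klf9, which was at -0.058 without 5-Fu+BBR replicate 3 and at -0.15 with 5-Fu+BBR replicate 1 alone. It gave -0.27 to 0.027 (without 5-Fu replicate 3) for Tsc22d3, which was at 0.076 with 5-Fu+BBR replicate 1 alone, and -0.70 to 0.20 (without 5-Fu replicate 3) for Pdk4. The cause of these changes was not tested. Pdk4 had no value in either FPKM setting because it was under their minimum.

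The replicate block gave 91 higher and 22 lower genes and called 0 of the 10 receptor-related genes, with adjusted p values of 0.0680, 0.0605 and 0.0646 for Fkbp5, Mt1 and Mt2 by edgeR. Deviations of same-numbered libraries correlated at 0.041, 0.049 and 0.19, not above 0.1 in every pair, so the numbers were not treated as pairs. 5-Fu replicates 1 and 3 correlated best with their own number and 5-Fu replicate 2 with 5-Fu+BBR replicate 1 (0.16), a hint from the data and not from the design. With 3 libraries a group and a biological coefficient of variation of 0.296, small differences in single genes cannot be detected.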
